A study of Petromyzon marinus with 4 samples.

Results

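Oocyte-like cells of the sea lamprey gonad were compared between a female transformer and larvae. The cells are droplets' barcodes selected on 5 RNAs (LOC116956100, LOC116956113, LOC116956115, LOC116947082 and LOC116947083). A barcode had to hold at least 1875 counts and 250 genes, and the 5 RNAs together at least 10 counts and 0.4% of its counts. The rule was met by 581 of 30598 female barcodes, by 303 of 19654 from larval library 1 and by 327 of 20592 from larval library 2, 1211 of 70844 in all. The female library was made from gonads of the transformer stage, which has undergone metamorphosis and whose sex was determined. The larval libraries are biological replicates 1 and 2 of gonads before sexual differentiation, with sex not determined. All material came from wild-caught animals of wild-type genotype and unknown age, after live cells had been enriched by flow sorting, and how many animals were pooled is not given in the sources used here. A library of a male transformer, with 31 such barcodes among 40223, took no part in the test.

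An oocyte enters meiosis, pauses in the first meiotic prophase, and then grows for a long time while it stores RNA and protein for the embryo. The synaptonemal complex holds paired chromosomes together early in that prophase and is dismantled before growth. piRNAs, small RNAs bound by PIWI proteins, silence transposons in the germ line, and many of their partner proteins sit in germ granules beside the nucleus. Larval sea lamprey gonads can hold oocytes before the gonad has become an ovary or a testis. Sea lampreys also discard part of the germline genome from their somatic cells during embryonic development. No RNA, promoter or protein sequences were available for these genes, so they are identified by gene name, LOC number and chromosome.

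The oocyte-like barcodes held 15545981 counts for the female, 24257100 for larval library 1 and 28082247 for larval library 2. The median barcode had 18040, 18894 and 22632 counts in that order. The medians were closer than the spreads, since 131 of 303 and 147 of 327 larval barcodes had at least 60000 counts against 60 of 581 female ones, and such barcodes gave 94.1%, 94.7% and 38.3% of the counts. Oocyte-like barcodes made up 1.90% of the female barcodes (exact binomial 95% interval 1.75 to 2.06), 1.54% of those of larval library 1 (1.37 to 1.72) and 1.59% of those of larval library 2 (1.42 to 1.77), intervals that cover counting error only. No barcode was oocyte-like in more than 1 library. Of the female ones, 57.7% were also listed in the male library, where their counts came to 0.00996% of those in the female library. Only 3.79% and 1.72% of them were listed in larval libraries 1 and 2. Between the larval libraries, 62.05% of the oocyte-like barcodes of library 1 were listed in library 2, and 63.91% the other way. Listed barcodes were thus shared far more within a stage than between stages, and the reason was not tested. In larval library 2 the female ones had 15616 counts (0.1005% of their own), and 1 of them passed the minima there. Doublets were not removed, and the upper 5% of doublet scores contained 54 female, 3 and 4 larval oocyte-like barcodes.

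The values that chose the barcodes also differed within the limits of the rule and are given as a description. The share of the 5 RNAs in a barcode had a median of 1.85% in the female, 0.729% in the first larval library and 0.770% in the other. It was 0.118%, 0.125% and 0.115% in barcodes without cells, taken as those ranked 40000 to 80000 by counts. Just outside the threshold, with a share of 0.3 to 0.4%, lay 19 female barcodes, 62 of larval library 1 and 68 of larval library 2. Just inside, between 0.4 and 0.5%, lay 18, 56 and 49.

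The oocyte label rests on few markers, because 9 of 15 listed oocyte or germ cell markers were found by name among the features and 8 had enough counts to be tested. ZAR1L, which binds stored mRNA in oocytes, had 129.2 CPM (a gene's counts scaled to a common total of 1e6) in the female library and 104.7 and 85.8 CPM in the larval libraries, against 7.34, 29.8 and 22.7 CPM in barcodes without cells. PIWIL1 had 29.9, 41.2 and 39.8 CPM against 4.63, 19.5 and 18.7 CPM without cells. Both lay above the level without cells in all 3 libraries. NANOS1 went the other way, at 9.08, 10.7 and 14.4 CPM in oocyte-like barcodes and 86.5, 72.7 and 81.4 CPM without cells. DDX4 in the female was near its level without cells. Of the 8 tested, CPEB1 was called higher in the female and DDX4, MAEL and SYCP3 lower. The 9 found summed to 318.0, 288.7 and 285.9 CPM, against 121.8, 184.3 and 180.6 CPM without cells.

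The female and larval oocyte-like cells differed in many more genes than the larval libraries did from each other. Counts were summed per library and 16968 genes were tested with edgeR's quasi-likelihood test, which called a gene at a Benjamini-Hochberg adjusted p under 0.05 with a fold of at least 2. The test called 3392 genes higher in the female (20% of those tested) and 2952 lower (17.4%), 37.4% in all. Among 6443 genes with at least 10 CPM, 3320 differed by at least 2-fold between female and larvae, and 14 did so between the larval libraries. The median size of the log2 ratio over these genes was 1.04 between female and larvae and 0.12 between the larval libraries. As a description without a test, 5696 of 15430 genes differed at least 2-fold in the same direction from both larval libraries, 3051 higher and 2645 lower, and 207 differed that much between the larval libraries. Among the 6443 genes with at least 10 CPM, the fitted fold change was at least 10-fold for 322 genes higher and 229 lower in the female. The genes called higher held 52.5% of the female counts and 9.67% and 9.17% of the larval counts, and those called lower held 11.3% against 42.7% and 43.2%. With 1 female library the only spread measured is that between the larval libraries, which the female library was assumed to share. Whether the replicates came from separate animals is not given, so that spread may be technical. Without TMM scaling, which shifted the median log2 fold change of all genes from -0.09 to -0.31, the called genes split into 2798 higher and 3822 lower. DESeq2 called 3068 higher and 1792 lower, with 87.2% of the edgeR calls higher and 60.5% of those lower among them.

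**Figure D1:**
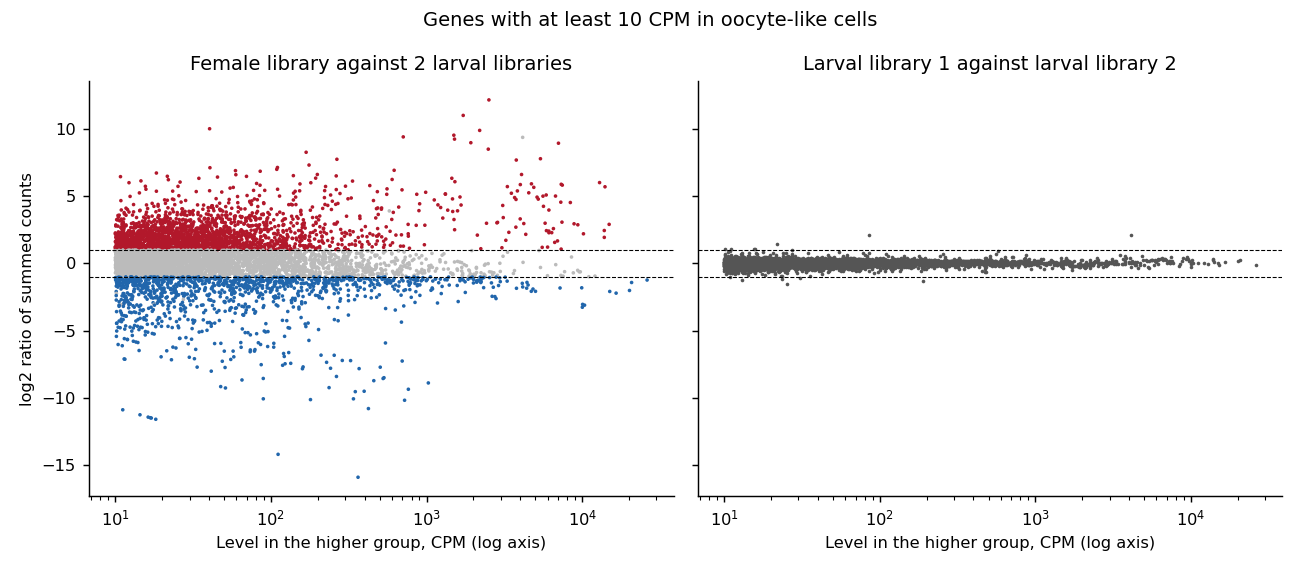
The log2 ratio of summed counts (vertical) against the level in the higher group in CPM (horizontal, log axis) for genes with at least 10 CPM, female against larvae on the left (red called higher, blue called lower, grey not called) and larval library 1 against larval library 2 on the right. Dashed lines mark 2-fold, which 3320 genes passed on the left and 14 on the right.

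Barcodes of the female and larval libraries were compared by the genes that differed most in the sums. The 315 genes called higher with at least 100 CPM, at least 2 times their level without cells, held a median of 41.9% of the counts of a female barcode, with a range from 2.75 to 54.0%. In the larval libraries they held medians of 6.14% and 6.13%, with highest values of 15.7% and 13.5%. The 202 genes called lower by the same limits held 4.37% of a median female barcode and 17.8% and 17.6% of a median larval one. All 581 female barcodes had more counts in the higher set than in the lower set, and 626 of 630 larval barcodes had the reverse. These sets were chosen on the same barcodes, so the separation is a description. The ranges overlapped for each set alone. The percent in the higher set was at or under the highest larval value in 35 female barcodes and at or over the lowest female value in 627 larval barcodes. The percent in the lower set was at or over the lowest larval value in 473 female barcodes and at or under the highest female value in 13 larval barcodes. By size, the higher set held 31.9% of counts in female barcodes under 5000 counts and 46.6% in those with at least 60000.

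**Figure D2:**
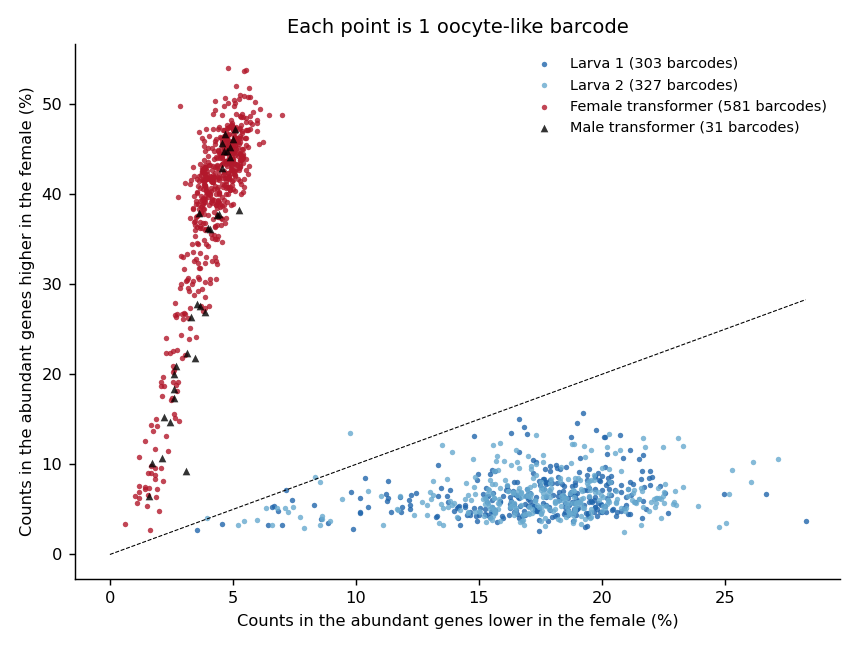
Each point is 1 oocyte-like barcode, placed by the percent of its counts in the 202 genes lower in the female (horizontal) and the 315 genes higher in the female (vertical). The dashed line marks equal percent, and all 581 female barcodes (red) and all 31 male ones (black triangles) lie above it.

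Single genes, picked after their values were seen, showed the split when each barcode was thinned to 1500 counts. CCNB2, the cyclin B that drives entry into M phase, was then detected in 95.7% of female barcodes and in 8.58% and 9.17% of larval ones. NASP, a histone chaperone abundant in germ cells, was detected in 96.2%, 15.5% and 10.1%. LOC116937873 was detected in 0.516% of female and 69.0% and 63.3% of larval barcodes. PCNA was detected in 27.4%, 27.4% and 28.4%. Before thinning the values for CCNB2 were 98.1%, 55.8% and 60.2%.

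Many abundant RNAs of oocyte-like cells came from groups of neighbouring LOC genes. Some groups were far lower in the larval cells, and those beside RNAs of the rule differed less in sum. The limits on level and the rule itself shape this contrast. A group was described where at least 4 LOC genes with 500 CPM or more in the group where they are higher, and there at least 10 times the level of the other barcodes, lay within 60 entries of each other in the gene table. The groups were defined, and a first filter on the other barcodes replaced, after values were seen, so they carry no test of their own. The 102 LOC genes that met the limits on level, in such a group or not, held 43.6% of the female counts and 21.0% and 19.0% of the larval counts. A gene could pass through the female level alone and all 102 had over 500 CPM in the female, so the limits shape how many were called higher (80), lower (4) or not called (18), and these counts support nothing. The genes of a group are near one another and some may be close copies that share reads, so values of single members are less certain than the sum of the group. Shares given below for a whole chromosome include the genes of its group.

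Of the 15 such genes on chromosome 79, all called higher, most passed through the female level alone. Over the whole chromosome 27 of 90 tested genes were called higher (30%) and 24 lower (26.7%), against 20% and 17.4% of all genes. The 27 include these 15, and 18 of them lie among the 19 tested genes in the span of the group. The share of 30% is therefore shaped by the limits and shows no excess over the rest of the chromosome. The counts of the 15 summed to 8.39% of the counts of the female oocyte-like cells and to 0.34% in each larval library, against 0.0357%, 0.0298% and 0.0304% in the other barcodes. LOC116938038 had 7037 CPM in the female library and 16.5 CPM in each larval library (log2 fold change 8.95 ± 0.16, approximate SE). LOC116958501, the most abundant of the group, had 14010 CPM against 322.5 and 300.6 CPM. LOC116958504 had 1512 CPM against 2.74 and 2.99 CPM. For these 3 genes the larval libraries lay close together and far from the female library.

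On chromosome 68 the 9 genes, a run without gaps in the gene table, had log2 fold changes from 2.91 to 4.95. Most of them also passed through the female level alone. Over the whole chromosome 23 of 163 tested genes were called higher (14.1%) and 40 lower (24.5%), against 20% and 17.4% of all genes. The 9 genes held 3.65% of the female counts and 0.34% and 0.33% of the larval counts. LOC116956881 alone had 14895 CPM in the female and 2286 and 2323 CPM in the larvae. A group of 4 genes on chromosome 55 held 1.83% of the female counts and 0.0739% and 0.0587% of the larval ones, with log2 fold changes from 4.76 to 5.23. All 4 passed through the female level alone, which fixed their direction. Over the whole chromosome 32 of 144 tested genes were called higher (22.2%) and 26 lower (18.1%), near the shares of all genes.

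The groups that contain the RNAs of the rule differed from each other. Barcodes of all 3 libraries were chosen on RNAs of these neighbourhoods, so the rule shapes the sums below, which are a description. On chromosome 29, where LOC116947082 and LOC116947083 lie, 8 of the 9 genes were called higher and 0 lower. The 9 genes had log2 fold changes from 0.48 to 2.59 and held 5.89% of the counts in the female against 2.58% and 2.38%. Over all of chromosome 29, 79 of 258 tested genes were called higher (30.6%) and 32 lower (12.4%). On chromosome 63, which holds LOC116956115, 11 of 17 were called higher and 2 lower. Some of the 17 passed through the female level alone. Over the whole chromosome 38 of 169 tested genes were called higher (22.5%) and 24 lower (14.2%), near the 20% and 17.4% of all genes. The sum of the 17 was nearly level, at 11.04% of the female counts and 9.74% and 8.33% of the larval counts. Within it LOC116956116 had 6737 CPM in the female and 264.5 and 218.5 CPM in the larvae. LOC116956110 had 4290 CPM in the female and 21237 and 19021 CPM in the larvae, and LOC116956091 had 6677 CPM against 22240 and 19291 CPM. Members of this neighbourhood differed in both directions. The 5 RNAs of the rule were left out of all CPM totals and of the test.

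**Figure D3:**
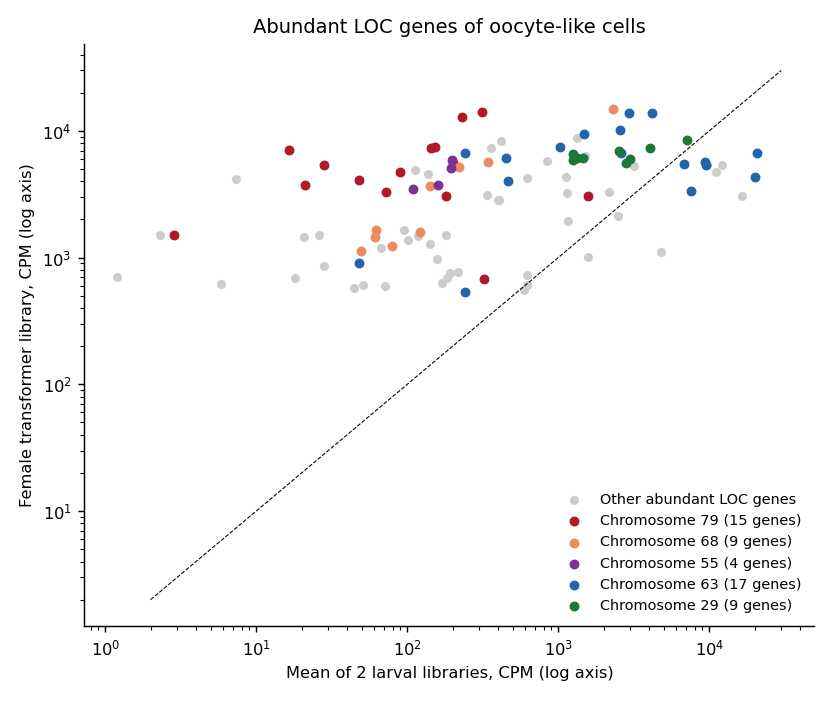
Level in the female library (vertical) against the mean of the 2 larval libraries (horizontal), both in CPM on log axes, for 102 abundant LOC genes of oocyte-like cells, with neighbouring groups in colour. All chromosome 79 (15), 68 (9) and 55 (4) genes lie above the dashed line of equal levels, and most of them passed the limits through the female level alone. The 17 chromosome 63 genes lie on both sides.

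Among genes with a symbol, the 12 largest increases in the female are given here as single genes, chosen for their size. MAP1LC3C, a member of the LC3 family that coats autophagosomes, had 600.5 CPM in the female and 10.2 and 8.19 CPM in the larvae (log2 fold change 6.25 ± 0.14). UCP2, a carrier of the inner mitochondrial membrane, had 301.3 CPM against 7.17 and 5.86 CPM. PIKFYVE, a kinase that makes endosomal phosphoinositides, had 221.4 CPM against 6.16 and 5.86 CPM. In each of the 3 the larval libraries differed by far less than the female differed from either. ARRB1 (beta-arrestin 1, which desensitises receptors), KBTBD8, NMU (neuromedin U), SDR39U1 and RITA1 completed them together with UPK3A, CCNB2, ASTL and NASP, with log2 fold changes between 5.37 and 5.95. UPK3A, a uroplakin of epithelial surfaces, had 80.9 CPM in female oocyte-like cells but also 27.0 CPM in barcodes without cells. NASP had 3832 CPM in the female and 117.5 and 93.4 CPM in the larvae.

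Among LOC genes outside chromosome 79, LOC116940542 on chromosome 9 had 1497 CPM against 2.02 and 2.59 CPM, and LOC116943973 on chromosome 19 had 708.1 CPM against 1.39 and 1.02 CPM. LOC116954604 on chromosome 55 had 613 counts in the female library and 1 in each larval library, so its ratio has a wide counting error. LOC116950791 on chromosome 40 was picked after its values were seen. It had 4144 CPM in the female and 11.9 and 2.73 CPM in the larvae, but was not called (edgeR adjusted p = 0.10), since the larval libraries differed from each other by 2.15 on the log2 scale.

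Of the genes of oocyte maturation and of the egg coat and yolk uptake, the few called were higher in the female. Of 12 maturation and meiotic arrest genes tested, 3 were called higher (25%, near the 20% of all genes tested) and 0 lower, against 17.4% of all genes (median log2 fold change 0.28, against -0.09 over all genes tested). CCNB2 had 4002 CPM in the female and 80.9 and 78.1 CPM in the larvae (log2 fold change 5.87 ± 0.14, edgeR adjusted p = 8.23e-45), and the larval values were close to the 75.9 and 64.3 CPM of barcodes without cells. PLK1, a kinase of M phase entry and spindle assembly, had 53.9 CPM against 2.19 and 2.40 CPM (log2 fold change 4.76 ± 0.17). FZR1, an activator of the anaphase-promoting complex that keeps arrested oocytes from resuming meiosis in mouse, had 25.7 CPM against 14.4 and 13.4 CPM, near its 24.9 CPM without cells, and its call was lost under 6 other settings, among them the one without TMM scaling (log2 fold change 0.89). MAD2L1, PKMYT1 and CCNB3 were among those not called.

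ASTL encodes ovastacin, the egg protease that cleaves an egg coat protein after fertilization in mouse. It had 556.9 CPM in the female and 13.2 and 14.4 CPM in the larvae (log2 fold change 5.55 ± 0.13). The other called gene of 6 tested for the egg coat and yolk uptake was the lipoprotein receptor gene LRP1, at 33.1 CPM against 15.2 and 14.7 CPM. LRP1 lay under its 73.4 CPM without cells and lost its call at a rule share of at least 2% (log2 fold change 0.90). The 2 genes called higher are 33.3% of the 6, against 20% of all genes, and 0 were lower, against 17.4%. Of 13 tested genes for storage and translation of oocyte mRNA, CPEB1 and PARN were called higher and 0 lower. This is 15.4% higher, below the 20% of all genes. CPEB1, which controls the poly(A) tail length of stored mRNA, had 131.9 CPM against 23.5 and 27.6 CPM (log2 fold change 2.58 ± 0.13). PARN, a deadenylase that works with it in frog oocytes, had 64.5 CPM against 13.5 and 12.9 CPM. ZAR1L differed by a log2 fold change of 0.65 ± 0.13 and did not reach 2-fold.

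Genes of early oocytes and of meiotic prophase differed in both directions. Of 5 oocyte transcription and growth factor genes tested, 1 was called higher and 1 lower (median log2 fold change 0.18). These shares of 20% each lie near the 20% and 17.4% of all genes. The 5 genes summed to 46.3 CPM in the female and 184.4 and 152.7 CPM in the larvae. These sums were 64.5%, 345.1% and 277.8% of those in barcodes without cells. The gene called higher, the BMP receptor gene ACVR1, had a log2 fold change of 1.21 and fell to 0.99 without TMM scaling. SOHLH2, a transcription factor of early oocytes in mouse, had 20.2 CPM in the female and 160.2 and 125.7 CPM in the larvae (log2 fold change -2.61 ± 0.17, edgeR adjusted p = 2.55e-17). SYCP3, a lateral element protein of the synaptonemal complex, had 2.50 CPM against 33.6 and 40.4 CPM (log2 fold change -3.67 ± 0.23). HSF2BP, which brings BRCA2 to meiotic breaks in mouse, had 18.7 CPM against 159.1 and 156.1 CPM (log2 fold change -2.86 ± 0.16). For all 3 the larval libraries lay close together, well above the female. Of 8 genes of the chromosome axis and synapsis, SYCP3 and MAJIN, which helps tether telomeres to the nuclear envelope, were lower, 25% against 17.4% of all genes. SUN1, its envelope partner, was higher at 27.4 CPM against 9.32 and 8.23 CPM. REC8, SMC3, TRIP13, TERB1 and TERB2 were not called, and REC8 was under 1 CPM in every library. The 8 genes summed to 77.7 CPM in the female and 106.2 and 118.8 CPM in the larvae, against 26.7, 89.5 and 79.4 CPM without cells.

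Of the 24 recombination genes tested, 6 were called higher (25%, against 20% of all genes), among them PSMC3IP, EXO1, BLM, MSH5 and PMS2, and 2 were called lower (8.33%, against 17.4%), HSF2BP and MEIOB. EXO1, an exonuclease that acts in repair and crossing over, had 51.1 CPM against 15.8 and 18.1 CPM (log2 fold change 1.81 ± 0.14). SPO11, which makes meiotic breaks, and DMC1, the strand exchange protein of meiosis alone, were at 1.12 and 1.32 CPM in the female, between 1.22 and 1.75 CPM in the larvae, and not called. Of the called members MSH5, PMS2 and MEIOB stayed under 5 CPM in every library. Without TMM scaling PSMC3IP, BLM, MSH5 and PMS2 no longer reached 2-fold, with log2 fold changes of 0.93, 0.97, 0.85 and 0.83, and MEIOB lost its call with DESeq2.

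No gene of the piRNA pathway was called higher, and 7 of 18 tested were called lower (38.9%, median log2 fold change -0.64), against 20% and 17.4% of all genes. MAEL, a germ granule protein, had 5.79 CPM in the female and 48.3 and 53.0 CPM in the larvae (log2 fold change -2.91 ± 0.19). TEX15, which acts in piRNA-guided silencing in mouse testis, had 0.526 CPM against 28.7 and 28.2 CPM, from 8 counts in the female library. PNLDC1, which trims piRNA ends, had 19.5 CPM against 61.8 and 53.1 CPM. TDRD1, TDRD12, DDX4 and PRMT5 were the other lower members, all at under 4 CPM in the female. Other members were not called. PIWIL1 (log2 fold change -0.22 ± 0.15), TDRD7 (0.02 ± 0.15), TDRD9 (-0.20 ± 0.15) and ASZ1 (0.19 ± 0.21) were among these, PIWIL2 fell just short of 2-fold at -0.997 ± 0.209, and HENMT1, which methylates piRNA ends, was at 0.71 ± 0.13. In barcodes of 10000 to 60000 counts PNLDC1 and DDX4 lost their calls, at -0.86 and -0.78. Of 5 germ cell RNA-binding genes BOLL and YTHDC2 were lower (40%, against 17.4% of all genes) and 0 higher. YTHDC2 had 4.28 CPM against 21.8 and 24.2 CPM. The 5 genes summed to 193.2 CPM in the female and 275.8 and 282.7 CPM in the larvae, under their 319.7, 335.9 and 304.8 CPM without cells. DDX4 in the female, at 3.62 CPM, was near its 3.35 CPM without cells.

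**Figure D4:**
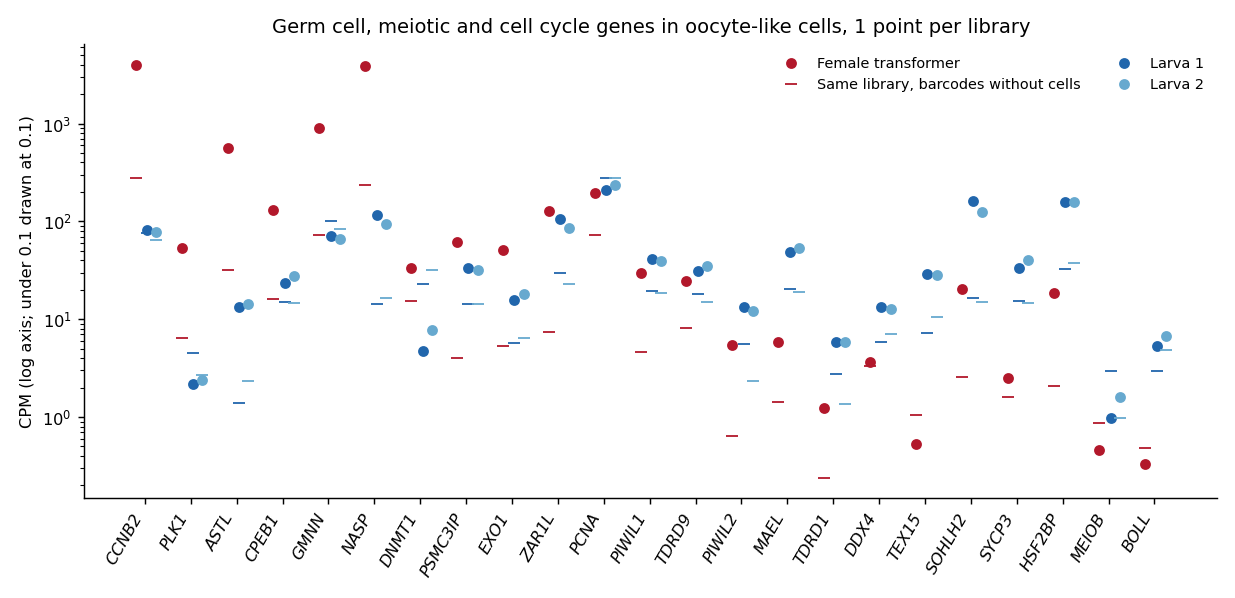
Level in CPM (log axis) of 23 germ cell, meiotic and cell cycle genes in oocyte-like cells, 1 point per library, with a dash for barcodes without cells of the same library. CCNB2, PLK1, ASTL and CPEB1 lie higher in the female, and MAEL, TEX15, SOHLH2, SYCP3 and HSF2BP lower.

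Genes of DNA replication and of mitosis that were called were mostly higher in the female cells. Of 50 replication genes tested 20 were called higher and 1 lower (40% and 2%, against 20% and 17.4% of all genes; median log2 fold change 0.66). GMNN, geminin, which blocks relicensing of origins, had 893.1 CPM in the female and 70.6 and 65.6 CPM in the larvae (log2 fold change 3.93 ± 0.12). PRIM2, a primase subunit, had 105.9 CPM against 19.6 and 17.5 CPM, and MCM2 and MCM10 were higher by log2 2.50 and 2.93. PCNA, the replication clamp, was not called, at 193.3 CPM against 209.2 and 233.1 CPM (log2 fold change 0.02 ± 0.12). DUT, TK1 and RRM1, which supply nucleotides, had log2 fold changes of -0.88, -0.63 and -0.86 and were not called.

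Of 23 mitosis genes 14 were called higher and 2 lower (60.9% and 8.70%, against 20% and 17.4% of all genes, median log2 fold change 1.13). ANLN, a scaffold of the cleavage furrow, had 47.8 CPM against 3.08 and 3.93 CPM. KIF23, a kinesin of the central spindle, had 89.2 CPM against 8.52 and 7.72 CPM. The kinetochore genes SPC24 and BUB3 were the lower ones, BUB3 with 141.4 CPM against 434.4 and 449.1 CPM, while SPC25 of the same kinetochore complex as SPC24 was higher by log2 2.36. Of 19 genes for DNA methylation and histone modification 8 were higher and 1 lower (42.1% and 5.26%, median log2 fold change 0.80). DNMT1, the maintenance DNA methyltransferase, had 33.4 CPM against 4.76 and 7.68 CPM, and its partner UHRF1 had 37.3 CPM against 9.95 and 9.83 CPM. The larval levels of DNMT1 lay under the 23.1 and 31.7 CPM of barcodes without cells.

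Nuclear transport and ribosome assembly genes leaned the same way. Of 42 nuclear pore and transport genes 14 were called higher and 3 lower (33.3% and 7.14%, against 20% and 17.4% of all genes, median log2 fold change 0.65). The import receptor gene IPO7 had 147.3 CPM against 20.4 and 22.6 CPM, and the importin alpha gene KPNA2 had 550.3 CPM against 88.1 and 105.6 CPM. Of 64 ribosome biogenesis genes 22 were called higher and 0 lower (34.4% higher, median log2 fold change 0.74). IMP3, a component of the small subunit processome, had 547.0 CPM against 191.4 and 170.1 CPM.

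The genes of the ribosome itself went the other way. Of 72 cytosolic ribosomal protein genes 35 were called lower and 0 higher (48.6% lower, against 17.4% of all genes, median log2 fold change -0.99). Together they had 65050 CPM in the female oocyte-like cells and 138805 and 152272 CPM in the larval ones. The same sum was 183867, 233266 and 249212 CPM in barcodes without cells, above the oocyte-like cells in all 3 libraries. The part that free RNA has in these levels was not tested. RPS20 had 959.5 CPM against 4415 and 4998 CPM.

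Among energy and protein turnover genes the calls were mostly lower. Of the 13 protein genes of the mitochondrial genome 12 were called lower (92.3%, against 17.4% of all genes), and ND4 had a log2 fold change of -0.91 (median -2.06). Their sum was 910.4 CPM in the female against 3777 and 3622 CPM in the larvae, 3.33%, 14.8% and 13.3% of the sum in barcodes without cells. Of 56 nuclear genes of oxidative phosphorylation 16 were lower and 0 higher (28.6% lower, against 17.4% of all genes, median log2 fold change -0.62). These 56 summed to 9504 CPM in the female and 18452 and 17977 CPM in the larvae. Without cells the sums were 17471, 18276 and 16764 CPM, so the list did not stand clearly above that level in any library. NDUFV1, a subunit of complex I, had 46.0 CPM against 262.3 and 247.7 CPM. Of 47 proteasome and chaperonin genes 18 were lower and 1, CCT6A, higher (38.3% and 2.13%, median log2 fold change -0.83). PSMB1, a subunit of the proteasome core, had 5.20 CPM against 82.8 and 74.7 CPM (log2 fold change -3.70 ± 0.19).

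**Figure D5:**
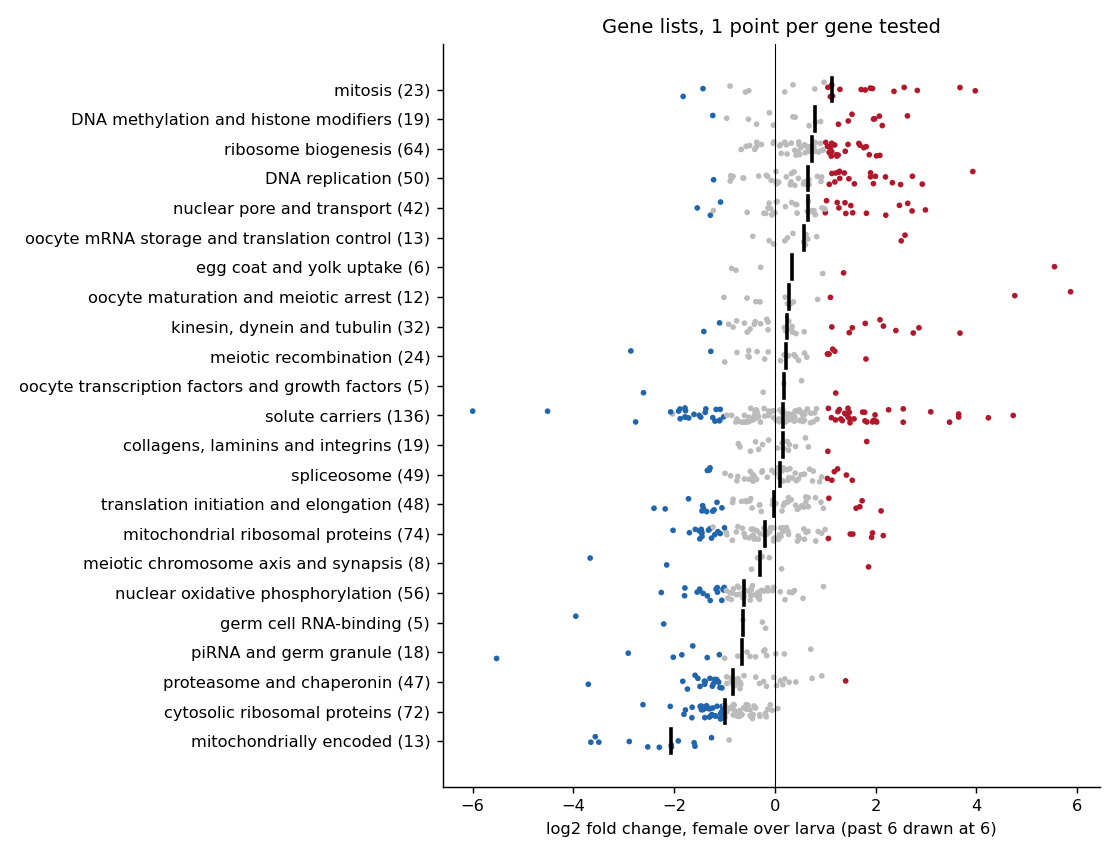
The log2 fold change of each tested gene of 23 lists, female over larvae, with red for called higher, blue for called lower and grey for not called, and a black bar at the median of the list. Mitosis (median 1.13) lies at the top and the mitochondrially encoded genes (median -2.06) at the bottom.

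The remaining lists were mixed. Of 136 solute carrier genes 33 were higher and 24 lower (median log2 fold change 0.17, or -0.05 without TMM scaling), shares of 24.3% and 17.6% that lie near the 20% and 17.4% of all genes. SLC35B2, which carries the sulfate donor PAPS into the Golgi, had 6.25 CPM in the female and 162.9 and 169.0 CPM in the larvae. SLC4A11, a membrane transporter, had 82.3 CPM against 4.64 and 5.46 CPM. Of 48 translation factor genes 5 were higher and 11 lower (10.4% and 22.9%). Of 74 mitochondrial ribosomal protein genes 6 were higher and 16 lower (8.11% and 21.6%). Of 49 spliceosome genes 6 were higher and 3 lower (12.2% and 6.12%), both under the shares of all genes. Of 32 kinesin, dynein and tubulin genes 10 were higher and 2 lower (31.2% and 6.25%), and of 19 collagen, laminin and integrin genes 2 were higher (10.5%) and 0 lower.

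A set of genes was at or near 0 in the female cells. SLC30A10, a manganese exporter in human, had 0 counts in the female library and 12.015 and 10.3 CPM in the larvae, which makes it at least 56.5-fold lower when 3 counts are taken as the limit of a count of 0. RSAD1 and DNAJC12, a cochaperone gene, had 0.79 and 1.12 CPM in the female and between 74.3 and 86.8 CPM in the larvae. C23H6orf58 had 3 counts in the female, a ratio of 165-fold with a counting interval of 56.4 to 802. CHRNB1, NAAA, TSPAN18, GCKR and GTPBP8 followed by size of change, with log2 fold changes from -4.18 to -4.66. TSPAN18 was lower but not near 0 in the female. It had 24.3 CPM in female barcodes under 5000 counts and 2.58 CPM in those with at least 60000.

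Many of the lowest RNAs belong to genes on sequences that the gene table places on no chromosome. Of 425 tested genes on such sequences 213 were called lower (50.1%, against 17.4% of all genes) and 28 higher (6.59%, against 20%). Their median log2 fold change was -1.23, against -0.09 over all genes tested. Of the 39 with at least 100 CPM and at least 2 times the level without cells, 33 were lower, and 26 had a fitted fold change of at least 10-fold lower. A gene could pass these limits through the larval level alone, so the limits shape these counts. LOC116937220 had 0 counts in the female and 359.9 and 365.5 CPM in the larvae, at least 1837-fold lower, and LOC116937271 had 0 counts and 111.9 and 110.3 CPM, at least 563-fold lower. LOC116937873 had 1.84 CPM against 1075 and 978.1 CPM, and LOC116937268 had 0.526 CPM against 712.7 and 731.6 CPM. LOC116937220 was at 60.6 CPM in the other barcodes of larval library 1 and at 83.0 CPM in its barcodes without cells, so its RNA was also present there. LOC116937096, also unplaced, and LOC116937263 and LOC116937886, which have no entry in the gene table, had 0 counts in the female and between 13.6 and 20.4 CPM in the larvae. Of these 39 genes 4 were called higher and 2 were not called. The highest were LOC116958497 and LOC116958508, at 7284 and 8389 CPM in the female against between 357.7 and 458.4 CPM in the larvae, and the other two were LOC116936897 (763.4 against 212.9 and 222.5 CPM) and LOC116958076 (285.3 against 98.4 and 100.2 CPM).

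RNA of barcodes without cells differed between the stages. A group of LOC genes on chromosome 43 in a transformer form (5 genes) had 91437 CPM in female barcodes without cells and 8865 CPM in female oocyte-like cells, 9.69% of it. The larval form (5 genes) had 41042 and 49341 CPM without cells and 638.4 and 529.5 CPM in larval oocyte-like cells, 1.56% and 1.07%. All 5 genes of the first were called higher and all 5 of the second lower in the female. Renal tubule markers, of which 3 of 6 were called higher, summed to 144.4 CPM in the female and 52.3 and 44.8 CPM in the larvae, 5.43%, 5.26% and 5.11% of their sum without cells. Follicle or supporting cell markers summed to 16.5, 17.96 and 16.6 CPM, with 1 of 6 called higher, stromal markers to 128.3, 138.0 and 131.5 CPM, with 1 of 9 higher and 2 lower, and endothelial markers to 16.9, 26.1 and 24.2 CPM, with 1 of 4 lower. The 1 muscle marker found was called higher, as was 1 of 2 epithelial ones, 0 of 2 neural ones and 0 of 1 steroidogenic one were called, and no immune marker was found by name. For comparison, 20% of all genes tested were called higher and 17.4% lower. The part of the RNA of barcodes without cells in the differences was not tested. Of the 16968 genes tested, 3643 were at least 2 times above the level without cells in the higher group. Among these 3643 genes 1557 were called higher and 823 lower. The limit was set on the higher group alone, so it shapes these counts.

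Over all genes, the test was repeated in barcodes of like rule share and of like size, settings chosen after seeing the data. In barcodes with a rule share of 1 to 2%, 220 of the female library and 77 and 86 of the larval libraries, edgeR called 2781 genes higher and 2560 lower of 13474 tested. In barcodes of 10000 to 60000 counts it called 1817 higher and 1288 lower of 7085 tested, and 3 genes were called in the direction opposite to that over all barcodes. The sets chosen on all barcodes are given for these ranges as a description, since their direction there was nearly fixed by the choice. At a rule share of 1 to 2% the 315 higher genes held 40.6% of the female counts and 8.68% and 7.91% of the larval counts, and the 202 lower genes held 4.03% against 18.8% and 19.0%. In barcodes of 5000 to 20000 counts CCNB2 had 3853 CPM in the female and 65.7 and 35.8 CPM in the larvae.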

How the data were processed

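Counts per gene and barcode were deposited as sparse matrices of whole numbers, 1 per library, per the file headers. The libraries were made with a PIPseq 3′ kit from gonads dissociated with a neuron isolation kit and flow-sorted for live cells, per the labels' protocols. The aligner, the genome build, the counter, and whether a count is a molecule or a read are not given in the sources used here. Library totals were 288723418 (female), 239024376 and 268135961 (larvae) and 406358335 (male) counts. Features without a gene name (24) held 0.235%, 1.21%, 1.31% and 1.17% of the counts of the oocyte-like barcodes in that order of libraries. They were left out, as were the 5 features of the rule. LOC features were matched to a RefSeq gene table of assembly UKy_Petmar_22M1.pri1.0, with 11871 of 13987 found and 688 given a symbol, and only names and chromosomes were taken from it.

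Sums over the oocyte-like barcodes of each library entered the quasi-likelihood test of edgeR 4.0.16 in R 4.3.3 (TMM factors, filterByExpr, robust quasi-likelihood fit, two-sided), 1 female library against 2 larval libraries with 1 residual degree of freedom. The SE is the log2 fold change divided by the root of its F statistic, an approximation. The test was also run on simulated data. Alternatives included DESeq2 1.42.0 and Scrublet in scanpy 1.11.5. CPM are raw, so log2 fold changes, which carry TMM factors, differ from CPM ratios by a constant.

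The members and gene lists were chosen with earlier results of these data known. Named genes are the 12 largest changes with a symbol and the 5 largest LOC genes in each direction, among genes called with at least 10 CPM and at least 2 times the level without cells. Added to them are up to 4 called members of each list in each direction, all members of the germ cell lists, and germ cell genes named in earlier work. The LOC gene groups, the genes shown per barcode, the genes of the germ cell plot, and SPC25, PCNA, DUT, TK1, RRM1, UHRF1, LOC116937873, LOC116937268 and the higher unplaced genes were chosen after values were seen. Replicate libraries are separate samples by their labels. Planned descriptions of promoter motifs and proteins were not run, since no sequences were available. Some members of the named genes are not reported here.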

Additional observations from a re-analysis of the deposited data

Results flagged for a closer look

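The male transformer library, which entered no comparison, contained barcodes that met the rule. They numbered 31 of 40223, 0.0771% (exact binomial 95% interval 0.0524 to 0.109), above the 0.00746% that a count of 0 would allow. Of these 31 barcodes 16 were also listed in the female library, with 25 counts there in all. The reason for their presence was not tested.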

How the results depend on the processing

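The count of called genes, 6344, stayed within 1.5 times under most settings. It was 4017 (2236 higher, 1781 lower) at a rule share of at least 2%, where 13 and 9 larval barcodes remained. In barcodes of 10000 to 60000 counts, a setting chosen after seeing the data, it was 3105 (1817 and 1288) of 7085 genes tested. It was 2380 (1557 and 823) of 3643 genes when only genes above the level without cells were kept. The genes called lower numbered 1792 with DESeq2 and 1958 with at least 20 counts in each library. Barcodes with at least 20000 counts gave 6297 called genes and a rule share of 1 to 2% gave 5341, settings also chosen after seeing the data. Without the fold minimum 9346 genes passed. Without TMM scaling 2798 were higher and 3822 lower. The female share of oocyte-like barcodes was 2.40% at the doubled count minimum. It was 2.01% at a rule share of at least 0.2%, 1.59% at 1% and 0.869% at 2%. The larval shares were 2.38% and 2.33% at a rule share of at least 0.2%, 0.458% and 0.461% at 1%, and 0.0661% and 0.0437% at 2%. At 0.2% both larval shares thus lay above the female one, the reverse of the order under the main rule. The male share was 0.0149% at 1%, and 0 barcodes met 2%. Genes at least 2-fold lower than in both larval libraries numbered 1649 at a minimum of 100 counts. Leaving out 1 larval library gave 6323 to 6444 genes past 2-fold, 3288 to 3386 higher and 3035 to 3058 lower, with no test, since no residual degree of freedom was left. Of 204 named genes none changed direction past the threshold under the settings run. With DESeq2 12 of them lost their call and 1 gained one, and without TMM scaling 9 did and 3 gained one. The causes of these shifts were not tested. Medians of the lists for oocyte transcription factors, egg coat, translation factors, spliceosome, kinesins, collagens and solute carriers changed sign under at least 1 setting. No paired analysis was possible because there is only 1 female library, so the groups share fewer than 2 replicate numbers. With 1 female library, animal-to-animal spread among females is not measured.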

Other observations

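The 31 male oocyte-like barcodes lay nearer to the female than to the larval levels. Of the 315 abundant genes higher in the female, 310 were above both larval libraries in the male sum and 291 were nearer to the female level than to the larval mean. Of the 202 lower genes all 202 were below both larval libraries and 196 were nearer to the female. In a median male barcode the higher set held 27.8% of the counts and the lower set 3.68%, and all 31 had more counts in the higher set. CCNB2 was detected in 93.5% of the male barcodes thinned to 1500 counts. These genes were chosen on the female and larval barcodes, and the male values, from 421623 counts of 1 library, carry no test. Of the 14 genes with at most 3 counts in the female and at least 20 CPM in the larvae, all 14 were below both larval libraries in the male sum as well. LOC116950791, not called, had 3339 CPM in it.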
